A study of Mus musculus with 6 samples.

Results

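The EGF family ligands and ErbB receptors considered here were 9 mouse genes, taken by symbol: the ligands Hbegf, Ereg, Tgfa, Btc, Egf and Areg, and the receptors Egfr, Erbb2 and Erbb3. All 9 were found among the 50600 gene identifiers in the count tables. Libraries of cortical thymic epithelial cells (cTECs) were compared with and without Psmb11. Without it, 4 of the 5 ligands tested and 2 of the 3 receptors were called higher, beside 12.5% of all genes tested. The members were chosen with earlier results of these data known. Hbegf rose 2.19-fold, Erbb3 1.84-fold, Ereg 1.77-fold, Tgfa 1.63-fold, Btc 1.51-fold and Erbb2 1.2-fold. The calls of Btc and Erbb2 were lost under some alternative settings. Egfr, the most abundant of the 9, and Egf were not called, and Areg was near its detection limit and was not tested.

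The ligands of this family are made as proteins anchored in the cell membrane and are released when a protease cuts their outer part, so that they act on the same cell or its neighbours. EGF, TGF-alpha and amphiregulin (Areg) bind EGFR, while HB-EGF, epiregulin (Ereg) and betacellulin (Btc) bind EGFR and ErbB4. ErbB2 binds no known ligand and works as the preferred partner of the others, and ErbB3, whose kinase is weak, binds neuregulins and passes signals on through its partners. In epithelia the pathway is known for driving growth, migration and repair.

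The series compared Psmb11-deficient mice (strain B6.B6CB-Psmb11tm1Smta, Psmb11-/-; KO) with Psmb11+/+ mice given under the same strain name (WT), all 8 to 10 weeks old. Psmb11 encodes β5t, a catalytic proteasome subunit of cTECs, and the KO allele is carried by the whole animal. Polyadenylated RNA of primary cTECs from thymus was sequenced in 6 libraries, 3 of each genotype (replicates A to C). The labels do not say whether replicates came from separate or pooled mice, so p-values measure only the spread between these samples, which may be technical.

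The libraries held 34265035 to 36713388 gene counts in KO and 34660349 to 39224292 in WT. Psmb11 had 36 to 67 counts in KO libraries, against 8293 to 10027 in WT libraries, which checks the genotype labels. Of the cTEC markers other than Psmb11 itself, 11 genes, none was at 0, and their summed level was 3603 to 4266 CPM (gene counts scaled to the same total in each library) in KO and 6231 to 6530 CPM in WT, with 10 of the 11 called lower in KO. Of all genes tested, 11.1% were called lower in KO and 12.5% higher. Markers of several other cell types were higher in KO. Medullary epithelial markers summed to 6167 to 6526 CPM in KO and 4841 to 5414 CPM in WT, and 7 of its 12 markers were called higher. Tuft cell markers summed to 164 to 210 CPM in KO and 104 to 113 CPM in WT (6 of 8 called higher), and fibroblast and pericyte markers to 1217 to 1326 CPM in KO against 863 to 969 CPM in WT (6 of 9 tested called higher). Most of the fibroblast and pericyte sum was Dcn, at 778 CPM over KO libraries and 607 CPM over WT libraries. Pdgfra, Pdgfrb and Postn were not called, with log2 fold changes of 0.04, 0.09 and 0.17. Dendritic cell and macrophage markers summed to 65.6 to 74.3 CPM in KO and 34.1 to 37.9 CPM in WT (8 of 9 tested called higher), with Xcr1, Siglech and Adgre1 below 1 CPM in every library. Endothelial markers overlapped, at 15.7 to 47.6 CPM in KO and 13.0 to 35.7 CPM in WT, with 0 of 7 tested called by edgeR, and so did thymocyte markers, at 35.2 to 70.9 CPM in KO and 38.1 to 46.9 CPM in WT, with 0 of 11 called. The part of these cells in the results below was not tested, and in such bulk RNA a change in the share of a cell type and a change of RNA per cell cannot be told apart.

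Counts were compared between genotypes with the edgeR quasi-likelihood test over all 16938 genes that passed a filter on low counts, and a gene was called at an adjusted p (Benjamini-Hochberg) below 0.05. Of the 9 members 8 passed the filter, each with at least 70 counts in every library, and Areg did not. Of these 8, 6 were called higher in KO, where 12.5% of all genes tested were called higher, and 0 were called lower, where the share was 11.1% of all genes; 23.6% were called in either direction. By the unadjusted edgeR p, too, 0 members were lower at the 0.05 level, and no alternative that was tried called a member lower. The median log2 fold change (KO over WT) was 0.65 over the 8 and 0.00 over all genes tested. The same 6 had all KO libraries above all WT libraries in CPM, as had 19.2% of all genes tested, and none of the 8 had all KO libraries below all WT libraries, as had 20.0%. Groups apart in either direction were seen in 39.3% of genes. Tested against a fold change of 1.2, 4 members were called higher, with 4.44% of all genes, and limma on log2(TPM + 1) also called 4 members higher, with 6.43% of its genes.

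**Figure D1:**
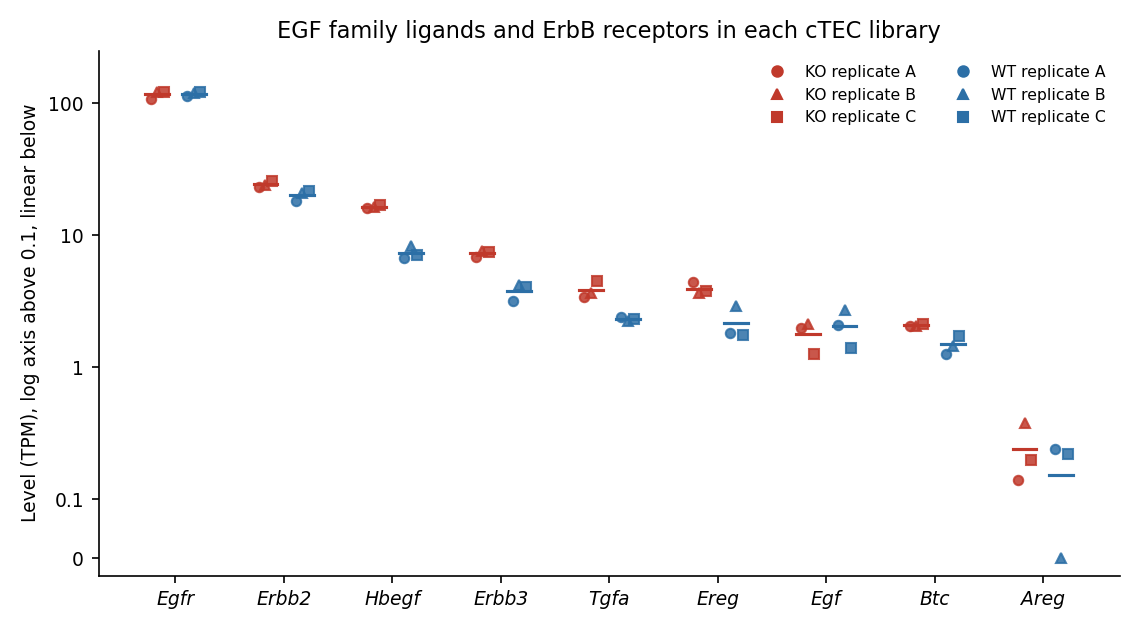
Level of each of the 9 genes in every library, in TPM (a level corrected for transcript length and library total), on a log axis above 0.1; red marks are KO, blue marks are WT, marker shapes are replicates A to C and bars are means. Egfr stands above 100 TPM in all 6 libraries, the KO marks of Hbegf and Erbb3 lie above the WT marks, and Areg stays below 1 TPM.

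Hbegf, the gene of heparin-binding EGF-like growth factor, was the most abundant of the 6 ligands and rose the most. It lies on chromosome 18, 36504927 to 36515805, minus strand (GRCm38; ENSMUSG00000024486.5). Its level was 21.8, 22.9 and 23.2 CPM in the KO libraries A, B and C, against 9.23, 11.6 and 10.0 CPM in the WT libraries A, B and C. The KO libraries were close to each other and all above the WT libraries, with no overlap. The means were 22.6 ± 0.732 CPM over KO libraries and 10.3 ± 1.23 CPM over WT libraries (SD, n = 3 each), a log2 fold change of 1.13 with a standard error of 0.09 (edgeR adjusted p = 3.04e-07; 95% interval of the fold 1.93 to 2.49). Of all genes tested, 2.72% had a higher log2 fold change. By level per length its place among protein-coding genes was 7854 to 8029 in KO libraries and 9754 to 10128 in WT libraries, counted from the most abundant.

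Tgfa encodes TGF-alpha, the ligand of EGFR long known from skin and gut epithelium (chromosome 6, 86195223 to 86275719, plus strand; ENSMUSG00000029999.14). Its level was 8.49, 8.90 and 11.1 CPM in the KO libraries A, B and C, against 6.10, 5.52 and 5.86 CPM in the WT libraries A, B and C. KO replicate C stood highest, and the lowest KO library was above the highest WT library. Tgfa averaged 9.48 ± 1.38 CPM over KO libraries and 5.82 ± 0.293 CPM over WT libraries (SD, n = 3 each), with a log2 fold change of 0.70 and a standard error of 0.12 (edgeR adjusted p = 4.97e-04).

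Ereg, the gene of epiregulin, a ligand that mouse ovary and inflamed epithelia are known to make, lies on chromosome 5, 91074622 to 91093646, plus strand (ENSMUSG00000029377.5). It had 10.0, 8.68 and 8.75 CPM in the KO libraries A, B and C, against 4.41, 6.82 and 4.25 CPM in the WT libraries A, B and C. The groups did not overlap, although WT replicate B was well above the other WT libraries. The means were 9.14 ± 0.741 CPM over KO libraries and 5.16 ± 1.44 CPM over WT libraries (SD, n = 3 each), a log2 fold change of 0.83 with a standard error of 0.16 (edgeR adjusted p = 0.00287).

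Btc, the gene of betacellulin, lies on the minus strand of chromosome 5, 91357261 to 91402994 (ENSMUSG00000082361.6). Its level was low, with 3.29, 3.39 and 3.33 CPM in the KO libraries A, B and C, against 2.03, 2.48 and 2.12 CPM in the WT libraries A, B and C. The KO libraries were nearly equal and lay above all WT libraries. The log2 fold change was 0.59 with a standard error of 0.16 (edgeR adjusted p = 0.0149), from 3.34 ± 0.0524 CPM over KO libraries and 2.21 ± 0.236 CPM over WT libraries (SD, n = 3 each). The call was lost without WT replicate A (adjusted p = 0.0667), without WT replicate C (0.0660) and with limma on log2(TPM + 1) (0.169) or log2(TPM + 0.1) (0.174), and when tested against a fold change of 1.2 (edgeR adjusted p = 0.122).

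Egf, the founding ligand of the family (chromosome 3, 129677565 to 129755316, minus strand; ENSMUSG00000028017.7), was not called. It had 3.18, 3.94 and 2.93 CPM in the KO libraries A, B and C, against 3.05, 4.76 and 2.89 CPM in the WT libraries A, B and C. The groups overlapped, and replicate B was the highest library in each genotype. The log2 fold change was -0.09 with a standard error of 0.20 (edgeR adjusted p = 0.797), and the 95% interval of the fold, 0.70 to 1.26, leaves room for a moderate change in either direction. Without WT replicate B the log2 fold change was 0.17 (edgeR adjusted p = 0.603).

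Areg, the gene of amphiregulin, was barely detected: 4, 10 and 4 counts in the KO libraries A, B and C, against 6, 0 and 5 counts in the WT libraries A, B and C. The groups overlapped at 0.165 ± 0.0919 CPM over KO libraries and 0.101 ± 0.0902 CPM over WT libraries (SD, n = 3 each). The count of 0 in WT replicate B allows a level of up to 0.083 CPM (3 counts of the library total; counting error only). No difference was detectable at this depth.

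Ereg, Areg and Btc lie in 1 cluster on chromosome 5 with Epgn, the gene of the ligand epigen, and no other protein-coding gene is annotated within its 375.5 kb. The start sites follow each other at 47.2 kb from Epgn to Ereg, 65.0 kb from Ereg to Areg and 263.4 kb from Areg to Btc. Levels in the cluster differed widely between neighbours: Ereg and Btc were above 2 CPM in every library and were called higher in KO, while Areg and Epgn stood below 1 CPM in every library. Epgn had 8, 6 and 2 counts in the KO libraries A, B and C, against 3, 0 and 2 counts in the WT libraries A, B and C.

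Promoter sequence was read from RefSeq (GRCm38.p6) for 6 of the 9 members, as windows from 250 bases before to 50 bases after the annotated start. The windows of Areg and Btc are shown as cluster neighbours with different levels, and that of Tgfa as a further ligand that rose. Both strands were searched for 4 motifs, and capitals mark the matches. The cAMP response element was searched as TGACGTCA. The GC box, a site of general activators, was searched as GGGCGG. The TATA box, which places the start of transcription, was searched as TATAAA. The AP-1 site was searched as TGANTCA and had no match in the windows of these 6 genes. No window of Hbegf, Erbb3 or Ereg, the members that rose the most, is among them. No matches overlapped each other.
Areg, chr5:91139349-91139648, plus strand: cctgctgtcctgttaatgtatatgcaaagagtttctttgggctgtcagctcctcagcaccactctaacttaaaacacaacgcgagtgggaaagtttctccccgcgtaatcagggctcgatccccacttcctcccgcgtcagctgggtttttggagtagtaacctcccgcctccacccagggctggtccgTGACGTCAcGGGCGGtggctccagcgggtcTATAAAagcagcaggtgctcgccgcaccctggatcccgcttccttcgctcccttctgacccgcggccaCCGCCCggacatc
Btc, chr5:91402945-91403244, minus strand: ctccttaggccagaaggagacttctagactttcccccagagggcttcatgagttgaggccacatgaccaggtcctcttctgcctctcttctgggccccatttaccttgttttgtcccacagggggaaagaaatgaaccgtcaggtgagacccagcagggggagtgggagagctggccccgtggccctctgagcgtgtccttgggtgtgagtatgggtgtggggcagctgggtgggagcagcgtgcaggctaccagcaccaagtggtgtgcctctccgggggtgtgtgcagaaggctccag
Tgfa, chr6:86194972-86195271, plus strand: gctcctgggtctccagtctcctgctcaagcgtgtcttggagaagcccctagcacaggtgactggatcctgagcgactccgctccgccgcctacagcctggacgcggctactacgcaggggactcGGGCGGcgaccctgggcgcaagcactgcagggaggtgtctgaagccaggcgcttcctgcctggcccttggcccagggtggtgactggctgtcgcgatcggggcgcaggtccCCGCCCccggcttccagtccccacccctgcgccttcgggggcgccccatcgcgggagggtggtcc

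The window of Areg held 1 cAMP response element, which began 61 bases before the start, 1 TATA box, which began 31 bases before it, and 2 GC boxes. That of Tgfa held 2 GC boxes and no TATA box, and that of Btc held none of the 4 motifs. Of all 32851 promoter windows 1.79% held the cAMP response element, 13.6% the TATA box, 35.7% the GC box and 7.81% the AP-1 site. The share of G and C was 70.7% for Tgfa, 60.3% for Btc and 59.3% for Areg, against a median of 52.7% over all windows. A match describes these letters alone and says nothing of binding.

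Of the receptors, Erbb3 rose the most. It lies on chromosome 10, 128567523 to 128589652, minus strand (ENSMUSG00000018166.8). Its level was 24.6, 26.8 and 26.0 CPM in the KO libraries A, B and C, against 12.3, 15.2 and 14.4 CPM in the WT libraries A, B and C. The groups were far apart for the spread within them. The means were 25.8 ± 1.11 CPM over KO libraries and 14.0 ± 1.47 CPM over WT libraries (SD, n = 3 each), a log2 fold change of 0.88 with a standard error of 0.08 (edgeR adjusted p = 1.33e-06; 95% interval of the fold 1.64 to 2.07). Erbb3 is also made by Schwann cells. Of genes that mark them, S100b and Cdh19 were below 1 CPM in every library, and Sox10 averaged 0.898 CPM over KO libraries and 0.656 CPM over WT libraries and was not called. Mbp and Ngfr, which other cells also express, were called higher, at 42.5 CPM over KO libraries against 31.2 CPM over WT libraries for Mbp and 39.6 CPM over KO libraries against 29.5 CPM over WT libraries for Ngfr. The part of such cells in the result for Erbb3 was not tested.

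Erbb2, the receptor without a ligand of its own, rose by a small amount (chromosome 11, 98412470 to 98437716, plus strand; ENSMUSG00000062312.5). It had 65.2, 69.7 and 74.5 CPM in the KO libraries A, B and C, against 54.5, 58.1 and 61.7 CPM in the WT libraries A, B and C. The lowest KO library was just above the highest WT library. The log2 fold change was 0.26 with a standard error of 0.06 (edgeR adjusted p = 0.00319), from 69.8 ± 4.65 CPM over KO libraries and 58.1 ± 3.61 CPM over WT libraries (SD, n = 3 each). The call was lost with limma on log2(TPM + 1) (adjusted p = 0.0865) and log2(TPM + 0.1) (0.0829), and when tested against a fold change of 1.2. Mien1, a protein-coding gene on the opposite strand, overlaps Erbb2 and had at most 1371 counts in a library, and counting without strand left the log2 fold change of Erbb2 at 0.26.

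Egfr, the receptor of all 6 ligands, was not called (chromosome 11, 16752203 to 16918158, plus strand; ENSMUSG00000020122.16). Its level was 447.7, 452.7 and 477.8 CPM in the KO libraries A, B and C, against 460.2, 480.0 and 477.2 CPM in the WT libraries A, B and C. The groups overlapped, with KO replicate C above WT replicates A and C. The log2 fold change was -0.04 with a standard error of 0.04 (edgeR adjusted p = 0.469), and the 95% interval of the fold ran from 0.92 to 1.03. Between 15853 and 18650 counts stood behind each value. Egfros, an antisense gene, overlaps Egfr and had at most 170 counts in a library. The mean transcript length of Egfr was estimated with isoforms weighted by their abundance. It was 6402 to 7138 bases in KO and 6661 to 6873 bases in WT, and the groups overlapped. The annotated coding transcripts of Egfr are 10208, 2943 and 463 bases long.

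**Figure D2:**
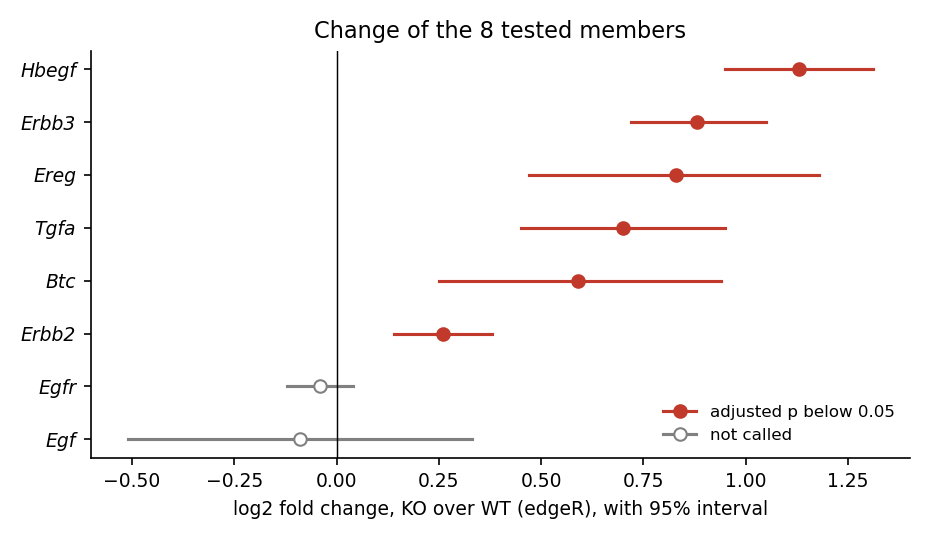
Log2 fold change (KO over WT) of the 8 members that passed the low count filter, from the edgeR quasi-likelihood fit, with 95% intervals derived from the F statistic; red points were called and open grey points were not. The intervals of 6 members lie above 0, and those of Egfr and Egf span it.

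Levels between genes were compared as TPM. In every library Egfr was highest, followed by Erbb2, Hbegf and Erbb3, and Areg was lowest; these neighbours did not overlap within either genotype. Egfr averaged 117 ± 8.23 TPM in KO and 118 ± 3.73 TPM in WT, Erbb2 24.4 ± 1.43 TPM in KO and 20.3 ± 1.77 TPM in WT, and Hbegf 16.5 ± 0.410 TPM in KO and 7.39 ± 0.870 TPM in WT (SD, n = 3 each). Erbb3 followed at 6.89 to 7.55 TPM in KO libraries and 3.18 to 4.17 TPM in WT libraries. Between Erbb3 and Areg the order was resolved only in part. In KO, Ereg at 3.95 ± 0.405 TPM and Tgfa at 3.87 ± 0.558 TPM overlapped, as did Btc at 2.08 ± 0.0361 TPM and Egf at 1.79 ± 0.458 TPM. In WT, Tgfa, Ereg, Egf and Btc overlapped each with the next, between 2.32 ± 0.0862 TPM for Tgfa and 1.49 ± 0.236 TPM for Btc.

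The sum of the 6 ligands was 28.1, 28.4 and 28.7 TPM in KO replicates A, B and C, against 14.5, 17.7 and 14.5 TPM in WT replicates A, B and C. Hbegf made up 57.1% to 58.7% of that sum in KO libraries and 46.2% to 48.8% in WT libraries. Egf made up 4.43% to 7.46% in KO and 9.56% to 15.5% in WT. The sum of the 3 receptors overlapped, at 137.6 to 154.9 TPM in KO and 135.2 to 146.7 TPM in WT. Within it Egfr made up 78.1% to 79.5% in KO and 82.5% to 84.1% in WT, and Erbb3 4.83% to 5.01% in KO and 2.35% to 2.90% in WT. There were 4.79 ± 0.263 Egfr transcripts per Erbb2 transcript in KO and 5.82 ± 0.340 in WT (SD, n = 3 each). These sums and shares are descriptions over genes chosen together and were given no test.

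**Figure D3:**
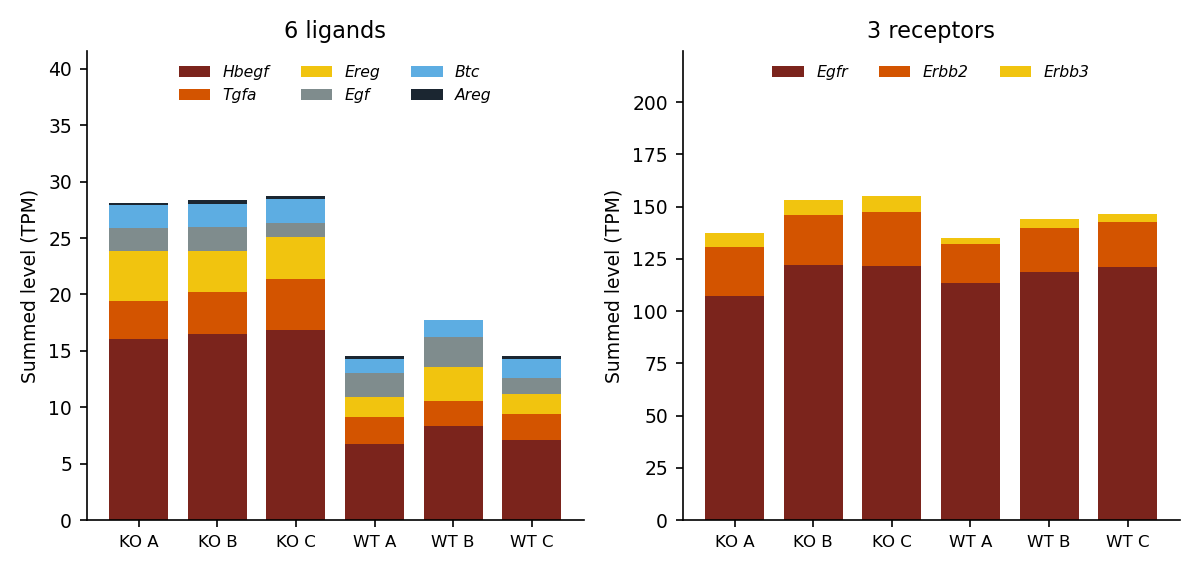
Summed level in TPM of the 6 ligands (left) and the 3 receptors (right) in each library, KO before WT, each bar split by gene and starting at 0. The KO ligand bars reach 28.1 to 28.7 TPM and the WT bars 14.5 to 17.7 TPM, with Hbegf the largest piece of each, while the receptor bars of the genotypes overlap and are mostly Egfr.

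The other ligands and the remaining receptor of the family were 6 genes, of which 3 passed the filter and 1, Nrg1, was called. Nrg1, a neuregulin that binds ErbB3, had 15.8, 19.9 and 19.8 CPM in the KO libraries A, B and C, against 14.3, 14.2 and 13.5 CPM in the WT libraries A, B and C. KO replicate A was closest to the WT libraries. The log2 fold change was 0.40 with a standard error of 0.09 (edgeR adjusted p = 0.00404). It was not called with limma on log2(TPM + 1) or when tested against a fold change of 1.2. Nrg2, another neuregulin, had 25.3 ± 1.55 CPM over KO libraries and 25.5 ± 1.12 CPM over WT libraries (SD, n = 3 each) and was not called. Erbb4 had 6, 2 and 1 counts in the KO libraries A, B and C, against 0, 2 and 0 counts in the WT libraries A, B and C, so that of the 4 ErbB receptors it alone was near its detection limit.

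Of 9 genes that act on the release of the ligands, 5 were called higher in KO and 0 lower (median log2 fold change 0.14), beside 12.5% and 11.1% of all genes. Rhbdf1, which encodes an inactive rhomboid protein that helps the protease ADAM17 mature, had 97.2 ± 3.15 CPM over KO libraries and 81.5 ± 1.83 CPM over WT libraries (SD, n = 3 each; edgeR adjusted p = 2.03e-04). Adam12, a protease that can cut HB-EGF, was the largest change, at 3.84 ± 0.281 CPM over KO libraries and 1.90 ± 0.266 CPM over WT libraries (SD, n = 3 each; edgeR adjusted p = 4.68e-04). Adam10 and Adam9 were 1.10-fold and 1.11-fold higher, and Adam17, the main protease of most of these ligands, 1.10-fold. Without WT replicate A 2 of the 9 were called, without WT replicate C 3, with limma on log2(TPM + 1) 2, and against a fold change of 1.2 only 1.

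Of 13 genes that restrain the receptors or send them for breakdown, 3 were called higher and 0 lower (median log2 fold change 0.06), beside 12.5% and 11.1% of all genes. Against a fold change of 1.2, 0 were called, where 4.44% of all genes were called higher. The called genes were Socs5, 1.21-fold higher, the ubiquitin ligase Cblb, 1.16-fold higher, and the phosphatase Ptpn1, 1.12-fold higher. Errfi1, a feedback inhibitor of EGFR, had 195 ± 10.3 CPM over KO libraries and 168 ± 16.3 CPM over WT libraries (SD, n = 3 each) and was not called (edgeR adjusted p = 0.0594). Of 25 genes of the relay from receptor to kinases, 2 were called higher and 4 lower (median log2 fold change -0.03), shares near the 12.5% and 11.1% of all genes. Grb2, the adaptor that joins receptors to Ras, was 1.12-fold lower, and Pik3r2 and Gab1 were 1.11-fold and 1.10-fold lower, while Pik3cb was 1.34-fold higher. Without KO replicate C the relay had 0 called higher and 2 lower, without WT replicate B or WT replicate C it had 1 higher and 2 lower, and without any other single library 1 was higher. With limma on log2(TPM + 1) 0 were called in either direction, where 6.43% of its genes were called higher.

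Of 15 genes known as targets of ERK, the kinase at the end of the Ras pathway, 9 were called higher in KO and 0 lower, with a median log2 fold change of 0.32, beside 12.5% and 11.1% of all genes. Epha2, an ephrin receptor, had 8.52, 10.2 and 9.89 CPM in the KO libraries A, B and C, against 3.89, 4.12 and 4.33 CPM in the WT libraries A, B and C. The groups were well apart (2.32-fold; edgeR adjusted p = 3.55e-06). Dusp4, a phosphatase that acts on ERK, had 11.7, 11.4 and 12.5 CPM in the KO libraries A, B and C, against 4.67, 4.54 and 6.45 CPM in the WT libraries A, B and C, and was also clear of overlap (2.27-fold; edgeR adjusted p = 1.00e-05). Ccnd1, a cyclin of the G1 phase, was 1.44-fold higher (edgeR adjusted p = 5.99e-05) and Dusp6, a phosphatase specific to ERK, 1.23-fold higher (edgeR adjusted p = 1.28e-04). Spry2, Etv5 and Ier3, 3 further targets, were not called, at 1.04-fold lower, 1.02-fold lower and 1.02-fold higher. Tested against a fold change of 1.2, 5 of the 15 were called higher, beside 4.44% of all genes. Dendritic cell and macrophage markers, with a median log2 fold change of 1.16, and medullary epithelial markers, with 0.70, were higher in the same KO libraries, and their part was not tested.

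**Figure D4:**
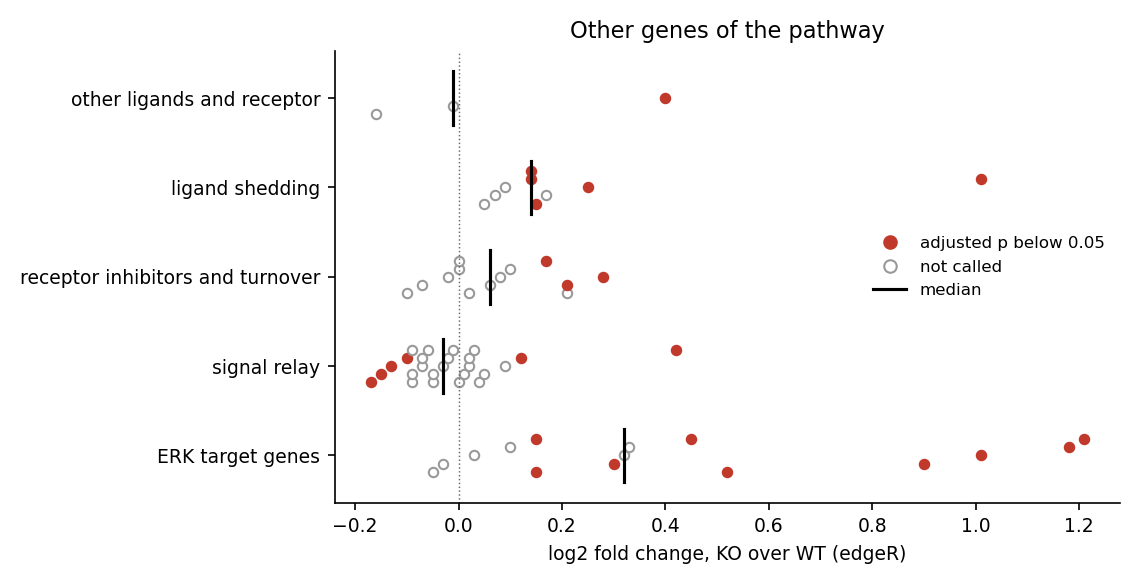
Log2 fold change (KO over WT, edgeR) of the tested genes in 5 lists of the pathway; filled red points were called, open grey points were not and black bars are medians. Called genes lie above 0 in the lists of ligand release, restraint and ERK targets, and on both sides of 0 in the relay.

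Areg is also made by regulatory T cells, innate lymphoid cells and mast cells. Of the regulatory T cell and innate lymphoid markers 4 of 8 tested were called higher, beside 12.5% of all genes. They were Ctla4 (2.61-fold), Gata3 (1.53-fold), Il2ra (1.38-fold) and Rora (1.12-fold). All 11 listed markers summed to 155 to 163 CPM in KO and 132 to 138 CPM in WT. Most of this sum was Rora, at 82.6 CPM over KO libraries and 73.6 CPM over WT libraries, and Ikzf2, at 42.3 and 39.1 CPM. Foxp3, Ctla4, Il1rl1, Il5 and Klrg1 were below 1 CPM in every library. All 8 mast cell and basophil markers were below 1 CPM, and Mcpt4, Mcpt8 and Ms4a2 were at 0 in all 6 libraries. For Hbegf and Erbb3, the called members with the smallest p above 5 CPM, the genes of most like pattern were sought among 14276 other protein-coding genes by the root mean square difference of log2 CPM, each centred on its own mean over the 6 libraries. Nearest to Hbegf were Oit1, Sstr2 and Mlph, at 0.061, 0.074 and 0.075, where the median over all candidates was 0.587. Nearest to Erbb3 were Dpp7, Anxa3 and Mboat1, at 0.062, 0.064 and 0.066, with a median of 0.468. The points share the 6 libraries and the genotype difference, and no test was made.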

How the data were processed

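Polyadenylated RNA of 3 KO and 3 WT cTEC preparations was sequenced with a stranded kit, per the labels' protocols. Read counts per gene for 3 strand settings were deposited by the authors, and the column of the strand that held most reads was used; rows naming no gene held 18.43% to 19.81% and were left out. Expected counts and TPM values per gene were deposited by the authors as RSEM output, per the file headers. The submitters' processing notes name bcl2fastq 2.17, STAR 2.5.1b and RSEM 1.2.28, and a human genome build although the identifiers are mouse. Of the identifiers 99.56% matched GENCODE M21 (GRCm38), whose coordinates are given here.

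Counts were tested with edgeR 4.0.16 (R 4.3.3; robust quasi-likelihood test, TMM, filterByExpr, Benjamini-Hochberg adjustment over 16938 genes). CPM used as library totals the counts of the genes that passed the filter, multiplied by TMM factors of 0.994 to 1.012. Standard errors and 95% intervals were derived from the F statistic and are approximate. The test was checked on simulated data. Alternatives used RLE and upper quartile scaling, DESeq2 1.42.0, other filters, rounded expected counts, limma 3.58.1 on log2(TPM + 1) and log2(TPM + 0.1), unstranded counts, a fold change threshold of 1.2, the replicate letter as a block and each library left out. Robust estimation was settled on after the data were seen, to follow earlier work on them, and the fit without it, which called 3899 genes, was added as an alternative. Replicate pairs varied 5.41 to 9.10 times as much as counting alone, so none was a library deposited again.

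All members were named, and from each pathway list up to 4 called genes by p. Adam17, Nrg2, Erbb4, Epgn, Errfi1, Sox10, S100b, Cdh19, Mbp, Ngfr, Rora, Ikzf2, Spry2, Etv5 and Ier3 were named after their values were seen. So were Dcn, Pdgfra, Pdgfrb, Postn, Ctla4, Gata3, Il2ra, Spry4, Etv4 and Epha4. The members and lists were chosen with earlier results of these data known.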

Additional observations from a re-analysis of the deposited data

How the results depend on the processing

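Over all genes, 3989 were called, against 1791 with limma on log2(TPM + 1), 1820 with limma on log2(TPM + 0.1) and 954 when tested against a fold change of 1.2; fewer calls follow from the threshold by its construction, and the cause of the limma counts was not tested. Leaving out each library in turn gave 2715 to 3661 calls over all genes, 5 to 6 members called higher and 0 called lower. Hbegf, Ereg, Tgfa and Erbb3 were called higher under all 18 alternatives run for each. The call of Ereg was narrow with limma on log2(TPM + 1) (adjusted p = 0.0494) and log2(TPM + 0.1) (0.0482). Btc was called under 12 of 17 and Erbb2 under 15 of 18. The log2 fold change of Egf, -0.09, ran from -0.22 to 0.17 when a library was left out and was above 0 only without WT replicate B; it was called under no alternative. With the replicate block 4097 genes were called, with 6 members higher and 0 lower, and no call of a member changed. The labels do not state that the letters pair libraries. Deviations of same-letter libraries correlated at -0.0156 (A), 0.0818 (B) and -0.0341 (C), and KO replicate A was closest to WT replicate C (0.0837). Correlations this weak cannot decide whether the letters pair the libraries. Depth limits Areg, Epgn and Erbb4, with at most 10 counts in any library.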
